A study of Saccharomyces cerevisiae with 4 samples.

Results

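The Set3 complex is a histone deacetylase complex of budding yeast, Saccharomyces cerevisiae, and the genes of its 7 subunits were followed here through a treatment with rapamycin. The members, HOS4, SET3, SNT1, HOS2, SIF2, HST1 and CPR1, were chosen by their systematic names out of 6176 genes, and all 7 had a value on every array. The complex was chosen for the large ratio of HOS4 in these same data, so that ratio is given as a description. Cells growing in rich medium (YPD) at 28 °C received rapamycin at 200 ng/ml for 1 h, or the vehicle of ethanol and Tween-20 as a mock treatment. One strain was ptc1, which lacks the protein phosphatase Ptc1, and the other was the wild type. The sources used here give neither the strain background nor the number of ptc1 clones.

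Each of 4 spotted 2-colour arrays, 2 per strain, set rapamycin-treated cells against the mock-treated cells of their own strain. The labels describe a dye swap of each RNA sample. The arrays of a strain were therefore counted as 1 biological sample, and the SD of 2 arrays given below is technical spread. With 1 sample per strain no test was possible, and no p-value is given. The values are log ratios taken as log2 of rapamycin over mock, so 1 stands for 2-fold. Neither base nor direction is stated with them, and the direction is likely from the study's design. All 4 arrays correlated positively with each other across genes (r from 0.869 to 0.958), so no sign was turned. The lowest r was that of the 2 ptc1 arrays with each other. It lay below that of every pair of a ptc1 and a wild-type array (0.898 to 0.939). Below, a gene rose or fell where its mean reached a size of 1 and both arrays of the strain agreed in sign.

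Set3 complexes remove acetyl groups from histones in transcribed chromatin. Set3 carries a finger domain that binds histone H3 methylated by the Set1 complex. Hos2 and Hst1 are the catalytic subunits, Hst1 being an NAD+-dependent enzyme of the Sir2 family. Snt1, Sif2, a protein with WD repeats, and Hos4, a protein with ankyrin repeats, are non-catalytic subunits, and Cpr1 is cyclophilin A, a prolyl isomerase that binds cyclosporin. The complex is known as a repressor of meiosis genes. Rapamycin acts on cells through its receptor Fpr1 and the kinase complex TORC1, which couples growth to nutrients.

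The arrays had values for 5301 to 5418 of 6212 rows in ptc1 and for 5006 to 5017 in the wild type. The median SD of a gene over 2 arrays was 0.277 in ptc1 and 0.155 in the wild type, so the ptc1 arrays were less precise. Across rows, the ratios spread less widely on the ptc1 arrays (SD 1.07 and 1.10) than on the wild-type arrays (1.24 on each). The PTC1 gene had no value on either ptc1 array and −0.26 ± 0.37 in the wild type (SD, n = 2 arrays). The labels contradict themselves on the dyes of the ptc1 arrays, titles naming one and dye fields the other, which leaves the means of the strains as they are.

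HOS4 (YIL112W) rose far more than any other gene of the complex. Its log2 ratios were 4.726 and 3.768 on the ptc1 arrays, against 4.647 and 5.126 on the wild-type arrays. All 4 arrays were thus high, and the ranges of the strains overlapped. The mean was 4.25 ± 0.68 in ptc1, a 19.0-fold rise, and 4.89 ± 0.34 in the wild type, a 29.6-fold rise (SD, n = 2 arrays each). This placed HOS4 at rank 3 of 5221 genes in ptc1 and at rank 4 of 4796 genes in the wild type. Taking each gene by the lowest of its 4 ratios, 2 of 4650 genes stood above HOS4, the nitrogen-regulated permease genes GAP1 and MEP2. The next gene of the complex lay 3.31 below HOS4 in ptc1 and 3.74 below it in the wild type, and on single arrays the gap was from 2.68 to 3.96. Across the remaining 6 members the median of the means was 0.32 in ptc1 and 0.26 in the wild type.

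**Figure D1:**
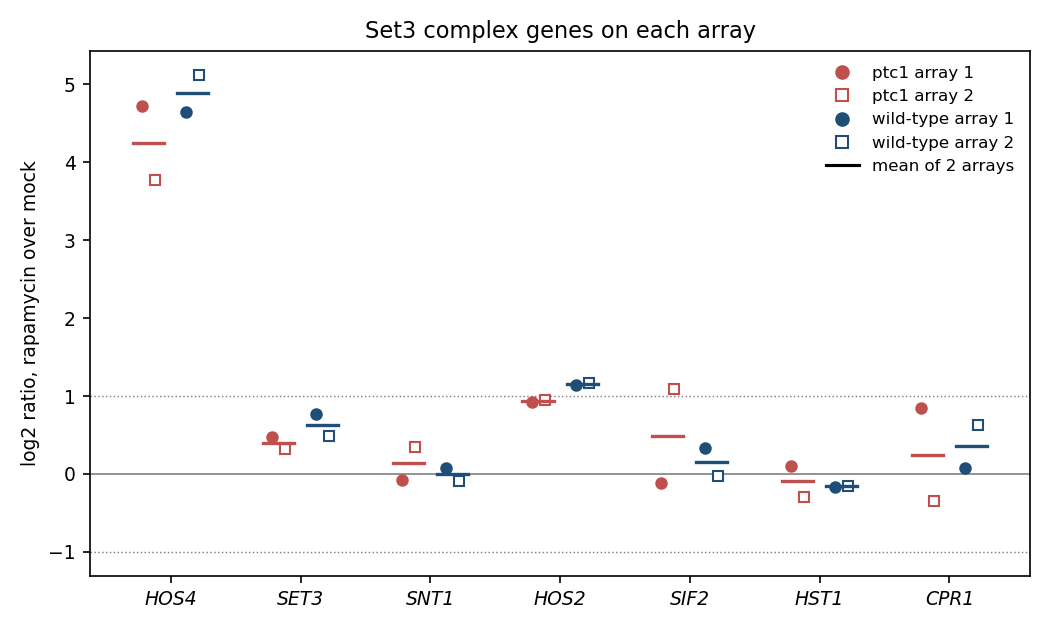
Log2 ratio of rapamycin over mock (vertical axis) for the 7 genes of the Set3 complex on each ptc1 array (red, left) and wild-type array (blue, right), with the mean of 2 arrays as a bar and the 2-fold size as dotted lines. HOS4 lies between 3.768 and 5.126 on all arrays, HOS2 close to 1, and the means of the rest nearer to 0, with SIF2 and CPR1 widely spread in ptc1.

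The genes of the catalytic subunits differed from each other. HOS2 (YGL194C), the gene of a zinc-dependent deacetylase, had ratios of 0.918 and 0.955 in ptc1, against 1.136 and 1.167 in the wild type. Its values were among the closest between arrays in the whole data set, with a gap at percentile 5.1 in ptc1 and 7.7 in the wild type. The mean was 0.94 ± 0.03 in ptc1, or 1.91-fold and just short of the 2-fold size, which it passed with arrays scaled to equal spread (1.004). In the wild type it was 1.15 ± 0.02, or 2.22-fold, and HOS2 rose there. HST1 (YOL068C) had ratios of 0.106 and −0.294 in ptc1, against −0.165 and −0.158 in the wild type. Its mean was −0.09 ± 0.28 in ptc1 and −0.16 ± 0.005 in the wild type, far from the 2-fold size in both. The 2 wild-type arrays differed by 0.007 for this gene, whereas the ptc1 arrays took opposite signs.

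SIR2 (YDL042C), which encodes the silencing deacetylase and is the paralogue of HST1, behaved otherwise in the wild type. Its ratios were −0.587 and −0.919 in ptc1, against −1.315 and −1.406 in the wild type. It fell in the wild type, by 2.57-fold, and its ptc1 mean of −0.75 ± 0.23 did not reach the 2-fold size. The 2 genes are related in sequence, and signal shared between them on the arrays was not examined.

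SET3 (YKR029C), the gene of the subunit that names the complex, had positive ratios on every array. They were 0.475 and 0.326 in ptc1, against 0.767 and 0.485 in the wild type. The mean of 0.40 ± 0.11 in ptc1 and 0.63 ± 0.20 in the wild type was larger than the array spread and below the 2-fold size. These ratios lay at percentiles 68.7 and 75.1 of all measured genes of ptc1 and the wild type, so many genes had higher ratios. SNT1 (YCR033W), the gene of a non-catalytic subunit with SANT domains, had ratios of −0.074 and 0.349 in ptc1, against 0.072 and −0.085 in the wild type. Its means, 0.14 ± 0.30 in ptc1 and −0.01 ± 0.11 in the wild type, were within the array spread.

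SIF2 and CPR1 could not be placed in ptc1, because the arrays disagreed. SIF2 (YBR103W) had −0.114 and 1.087 in ptc1, against 0.333 and −0.025 in the wild type. Its ptc1 mean of 0.49 ± 0.85 covers a gap of 1.201 between the arrays, and the wild-type mean was 0.15 ± 0.25. CPR1 (YDR155C) had 0.843 and −0.353 in ptc1, against 0.079 and 0.634 in the wild type. The mean was 0.24 ± 0.85 in ptc1 and 0.36 ± 0.39 in the wild type, each smaller than its SD. The ptc1 gaps of SIF2 and CPR1 were at percentiles 96.3 and 96.2 of all genes, and that of HOS4, at 0.958, was at percentile 90.3.

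In ptc1, both arrays had the same sign for 3 of the 7 members (HOS4, SET3 and HOS2), where 75.6% of all genes had this. In the wild type it was 5 of 7, HST1 and CPR1 in addition, where all genes reached 87.4%. By the dye fields of the labels, the gap between the array with rapamycin-treated RNA in Cy5 and the one with it in Cy3 ran the same way in both strains for 5 members. It was positive for HOS4 (0.958 in ptc1, 0.479 in the wild type), CPR1 (1.196 and 0.555) and HST1, and negative for SIF2 (−1.201 and −0.358) and SNT1. Over all genes on 4 arrays 61.5% had gaps of the same sign, and the gaps of the strains correlated across genes with r = 0.31 (n = 4650 genes, which share their arrays). With the dyes named in the titles the same correlation is −0.31. The part of the dyes in these gaps was not tested.

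**Figure D2:**
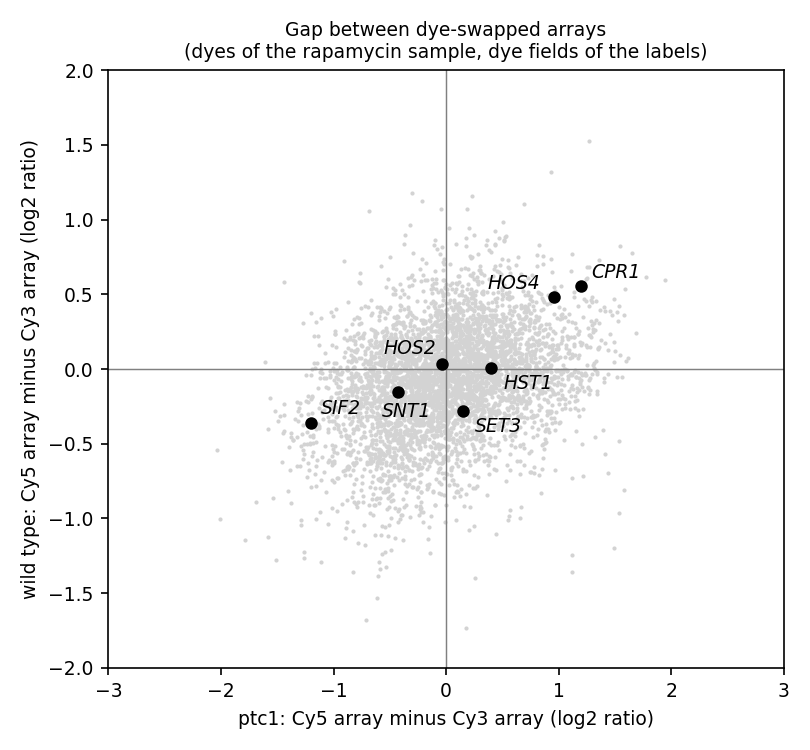
Gap in log2 ratio between the Cy5 and Cy3 arrays of ptc1 (horizontal axis) and of the wild type (vertical axis), by the dye fields of the labels, for the 7 genes of the complex (black, named) over 4650 genes (grey; 1 lies outside the axes). CPR1 and HOS4 lie far to the upper right and SIF2 far to the lower left, while HOS2 is near 0 on both axes.

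The members were then counted against all genes. In ptc1, 1 of 7 members rose (HOS4; also SIF2, at 1.087, without ptc1 array 1), where 10.6% of all measured genes did, and in the wild type 2 of 7 (HOS4 and HOS2), where 13.8% did. None of the 7 fell, where 12.4% of genes fell in ptc1 and 15% in the wild type. HOS4 had singled out the complex in this contrast, so these counts are a description. The median of the 7 means was 0.40 in ptc1 and 0.36 in the wild type, beside 0.08 in ptc1 and 0.07 in the wild type over all genes. Without HOS4 it was 0.32 in ptc1 and 0.26 in the wild type.

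**Figure D3:**
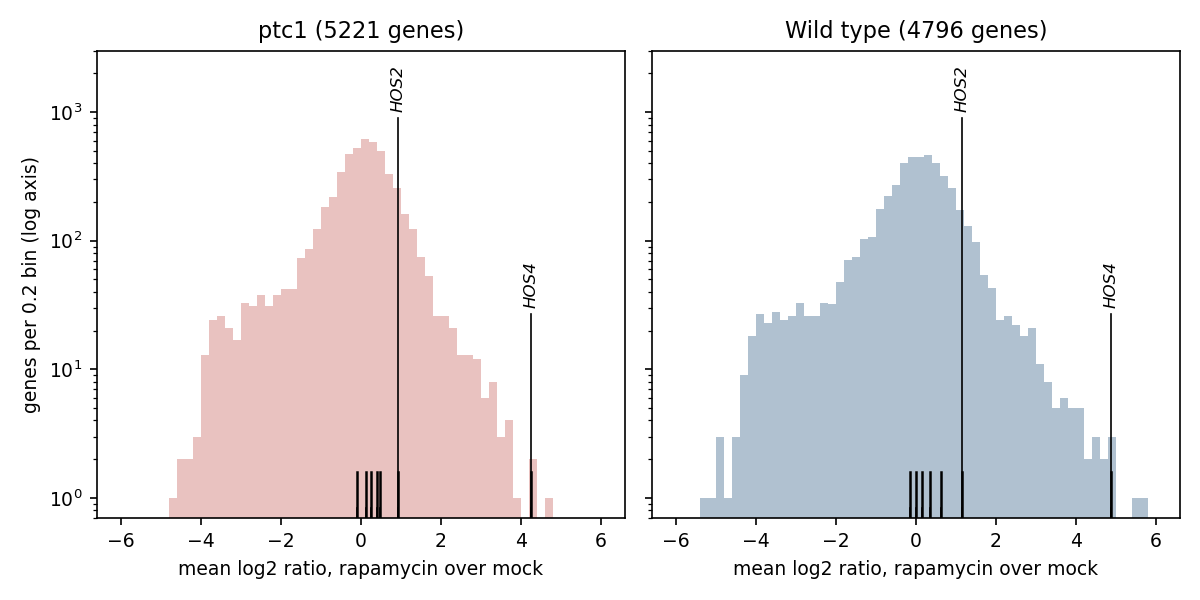
Number of genes (vertical log axis) by mean log2 ratio (horizontal axis, bins of 0.2) in ptc1 (left, 5221 genes) and in the wild type (right, 4796 genes), with the genes of the complex as black ticks. HOS4 stands at the upper end, at 4.25 in ptc1 and 4.89 in the wild type, HOS2 on the right shoulder, and the other members near the centre.

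The comparison of strains asked whether the response depends on Ptc1. It was made by subtracting the wild-type mean of each gene, and a gene was counted where the result was at least 1 in size and each ptc1 array lay on the same side of each wild-type array. None of the 7 members passed, where 1.91% of 4650 genes did. HOS4 had the largest difference of the members, −0.64 ± 0.76, the error combining the SDs of both strains. That is smaller than its own spread, and ptc1 array 1 stood above wild-type array 1. Paired by the dye fields, the difference was −0.88 for Cy3 and −0.40 for Cy5. Paired by the titles it was 0.08 for Cy3 and −1.36 for Cy5. Without ptc1 array 1 the HOS4 difference was −1.12 and passed the rule, and with arrays scaled to equal spread it was −0.02.

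HOS2 had a small difference with the smallest error, −0.22 ± 0.03, and both ptc1 arrays lay below both wild-type arrays. At percentile 24.6 of all genes it was an ordinary size of difference, and with scaled arrays it was −0.07. SET3 had a difference of −0.23 ± 0.23, and both its ptc1 arrays also lay below both wild-type arrays. The differences of SNT1 (0.14 ± 0.32), SIF2 (0.33 ± 0.89), HST1 (0.07 ± 0.28) and CPR1 (−0.11 ± 0.93) were all smaller than their errors. Each ratio is taken against mock-treated cells of the same strain, so levels before treatment were not compared.

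The neighbours of HOS4 gave mixed ratios. Along its chromosome it is preceded by SDP1 and followed by COX5B and then HPM1, and by their systematic names all 4 are on the same strand. COX5B (YIL111W) encodes the isoform of cytochrome c oxidase subunit V used in low oxygen. Its ratios were 1.619 and 2.704 in ptc1, against 3.102 and 2.828 in the wild type. COX5B rose in both strains, by 4.47-fold in ptc1 and 7.81-fold in the wild type. Both its ptc1 arrays lay below both wild-type arrays, and the difference of −0.80 ± 0.79 was about as large as its error and did not pass the rule, except without ptc1 array 2 (−1.35).

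SDP1 (YIL113W), the gene of a phosphatase of the kinase Slt2, had ratios of 0.832 and 0.726 in ptc1, against 1.131 and 0.978 in the wild type. Its mean of 0.78 ± 0.07 in ptc1 was below the 2-fold size, and it rose in the wild type (1.05 ± 0.11), by so little that centring or scaling the arrays, or leaving out wild-type array 1, ended the call (0.99, 0.99 and 0.98). HPM1 (YIL110W), the gene of a histidine methyltransferase of a ribosomal protein, went the other way, with −1.769 and −0.886 in ptc1 and −1.657 and −1.463 in the wild type. It fell in both strains, by 2.51-fold in ptc1 and 2.95-fold in the wild type, although ptc1 array 2 alone (−0.886) was short of the size. Farther out, POR2 and SEC24 did not reach the 2-fold size in either strain. NUP159 did not reach it in ptc1 (−0.05 ± 0.47) and had no value in the wild type. Of 6 neighbours measured in ptc1 1 rose, of 5 measured in the wild type 2 rose, and HPM1 fell in both strains. With 10.6% of all genes rising in ptc1 and 13.8% in the wild type, and 12.4% and 15% falling in ptc1 and the wild type, counts this small are near the background. Signal shared between adjacent transcripts was not examined.

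**Figure D4:**
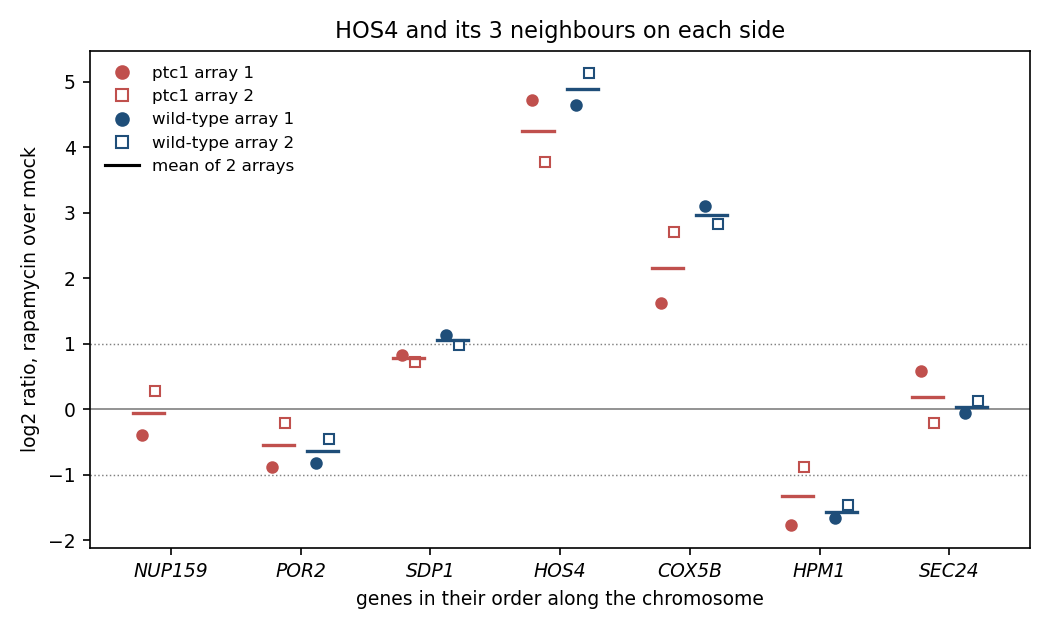
Log2 ratio of rapamycin over mock (vertical axis) for HOS4 and the 3 genes on each side of it, in their order along the chromosome (horizontal axis), on each ptc1 array (red) and wild-type array (blue), with means as bars and the 2-fold size dotted. HOS4 and COX5B are high on all arrays, HPM1 is below 0 on all, and the outer genes lie nearer to 0.

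The genes most like HOS4 were found by the Euclidean distance between log2 ratios over the 4 arrays, among 4643 genes. The closest was CPS1, the gene of a vacuolar carboxypeptidase, at a distance of 1.12. Its ratios were 3.739 and 3.376 in ptc1, against 4.284 and 5.149 in the wild type. GAP1, the gene of the general amino acid permease, followed at 1.28, then SNZ1 of vitamin B6 synthesis at 1.33, the ammonium permease gene MEP2 at 1.34 and ARG4 of arginine synthesis at 1.40. The ptc1 minus wild-type difference was −1.16 for CPS1, −0.83 for GAP1, −0.94 for SNZ1 and −1.22 for ARG4. For MEP2 it was 0.26, and HOS4, at −0.64, lay between MEP2 and GAP1. With arrays scaled to equal spread the differences were −0.60 for CPS1, −0.12 for GAP1, −0.39 for SNZ1, −0.68 for ARG4, 0.82 for MEP2 and −0.02 for HOS4. Those of CPS1 and ARG4 passed the rule on all arrays unscaled, but not when scaled or without ptc1 array 2 (−0.98 for CPS1, −0.99 for ARG4). That of CPS1 also missed it without wild-type array 2 (−0.73). The difference of GAP1 passed without ptc1 array 1 (−1.32), and that of SNZ1 without ptc1 array 2 (−1.07). The measure reads the size of the ratios, so any gene with high values on all arrays lies near HOS4.

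Set beside the genes of other deacetylases and of subunits of their complexes, HOS4 had the largest ratio by a wide margin. As the complex was chosen for that ratio, this is a description. Of 23 such genes listed, from the Rpd3 and Hda1 complexes and the remaining deacetylases, 20 were measured in ptc1 and 19 in the wild type. Their means ran from −1.52 to 0.91 in ptc1 and from −1.84 to 1.28 in the wild type, with a median of 0.02 in ptc1 and −0.17 in the wild type. None rose in ptc1 and 2 fell there, RXT3 and HOS3, where 10.6% of all genes rose and 12.4% fell. HST4 (−0.96 ± 0.95) joined those that fell when arrays were centred or scaled. Without ptc1 array 1 both HST4 (−1.63) and EAF3 (−1.257) were past the size, and without ptc1 array 2 ASH1 was (1.067). In the wild type SDS3 rose, while RXT3 and SIR2 fell, where 13.8% of all genes rose and 15% fell. Without wild-type array 1 ASH1 was past the size as well (1.018), and without wild-type array 2 HOS3 was (−1.47).

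RXT3 (YDL076C), the gene of a subunit of the large Rpd3 complex, had ratios of −1.167 and −1.193 in ptc1, against −1.851 and −1.83 in the wild type. Both ptc1 arrays were nearer to 0, and the difference was 0.66 ± 0.02. SDS3 (YIL084C), of the same complex, had 0.634 and 0.710 in ptc1, against 1.378 and 1.176 in the wild type. HOS3, the gene of a deacetylase not assigned to these complexes, fell to −1.52 ± 0.49 in ptc1 and had −1.47 on its single wild-type array. RPD3, the catalytic subunit gene, stood at 0.61 ± 0.44 in ptc1 and 0.61 ± 0.18 in the wild type. SIN3, the gene of the scaffold of the Rpd3 complexes, was similar, at 0.52 ± 0.14 in ptc1 and 0.55 ± 0.35 in the wild type.

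Genes of the Set1 complex, of histone acetyltransferases and of the partners of Sir2 and Hst1 had list medians between 0 and 1. Over all genes 10.6% rose and 12.4% fell in ptc1, and 13.8% rose and 15% fell in the wild type. A count of 0 lies below these shares, but the lists are short, so such counts are given as a description. Of the 8 Set1 complex genes 7 were measured in ptc1 and 6 in the wild type, with medians of 0.13 in ptc1 and 0.29 in the wild type, and none rose or fell. SHG1 passed the size on ptc1 array 2 (1.047) and on the single wild-type array that measured it (1.646), and BRE2 on wild-type array 2 (−1.002). Of 8 genes of the NuA4 and SAGA acetyltransferases 6 were measured in each strain, with medians of 0.22 in ptc1 and 0.18 in the wild type, and again none rose or fell. Of SIR3, SIR4, SUM1 and RFM1, the last a partner of Hst1 and Sum1, 3 were measured in each strain and none rose or fell, although RFM1 passed the size on wild-type array 1 (1.086). SET1 and SIR3 had no value on any array.

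Lists that hold known targets of repression by the complex or its subunits were read as well. Only some of the meiosis and sporulation genes listed are such targets. Of 13 meiosis and sporulation genes 7 were measured in ptc1 and 6 in the wild type, and none rose or fell. Over all genes 10.6% rose and 12.4% fell in ptc1, and 13.8% rose and 15% fell in the wild type. With so few genes the count is again a description. Their medians were −0.37 in ptc1 and −0.11 in the wild type. The ptc1 arrays disagreed for SMK1 (0.236 and −1.091), SPS2 (0.005 and −1.228) and SPO11 (−1.426 and −0.143), each past the size on 1 array. IME1, the gene of the activator of meiosis, stood at −0.06 ± 0.04 in ptc1 and −0.21 ± 0.15 in the wild type. IME2 had −0.117 and −0.563 in ptc1, against 0.643 and −0.459 in the wild type, where the arrays disagreed in sign. NDT80 had a value on ptc1 array 1 only (−0.304), so it could not be read. Missing values were common in this list, so it covers part of the programme only. Of 6 genes of NAD+ synthesis and uptake, where Hst1 with Sum1 is a known repressor, BNA1 (YJR025C) rose in both strains. Its ratios were 1.738 and 2.216 in ptc1, against 2.857 and 2.907 in the wild type, or 3.94-fold in ptc1 and 7.37-fold in the wild type. As 10.6% of all genes rose in ptc1 and 13.8% in the wild type, 1 of 6 is near the background. The means of the other 5 did not reach the 2-fold size, with BNA6 at 0.65 ± 0.23 in ptc1 and 0.98 ± 0.07 in the wild type. BNA6 passed it on wild-type array 1 alone (1.024). TNA1, the gene of the nicotinic acid permease, was negative on all arrays, at −0.93 ± 0.67 in ptc1 and −0.95 ± 0.01 in the wild type. It fell in the wild type once arrays were centred (−1.02), and passed the size on ptc1 array 1 alone (−1.399).

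CPR1 was also set beside the other immunophilin genes, cyclophilins and the FK506- and rapamycin-binding proteins. Of 11 listed 10 were measured in each strain, with medians of 0.09 in ptc1 and 0.37 in the wild type. FPR1, the gene of the rapamycin receptor, had no value on any array. CPR6, the gene of an Hsp90-associated cyclophilin, had ratios of 1.121 and 1.271 in ptc1, against 1.085 and 0.739 in the wild type, and rose in ptc1. In the wild type its mean of 0.91 ± 0.24 was short of the size, while array 1 alone passed. FPR4, the gene of a nucleolar histone chaperone with prolyl isomerase activity, had −2.456 and −1.867 in ptc1, against −2.766 and −3.224 in the wild type. It fell in both strains, by 4.47-fold in ptc1 and 7.97-fold in the wild type, and no other of the 10 genes fell, although FPR3 passed the size on wild-type array 2 (−1.172). CPR6 was the only 1 of the 10 to rise in ptc1, and none rose in the wild type. Over all genes 10.6% rose and 12.4% fell in ptc1, and 13.8% rose and 15% fell in the wild type. With so few genes, these counts too are a description.

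**Figure D5:**
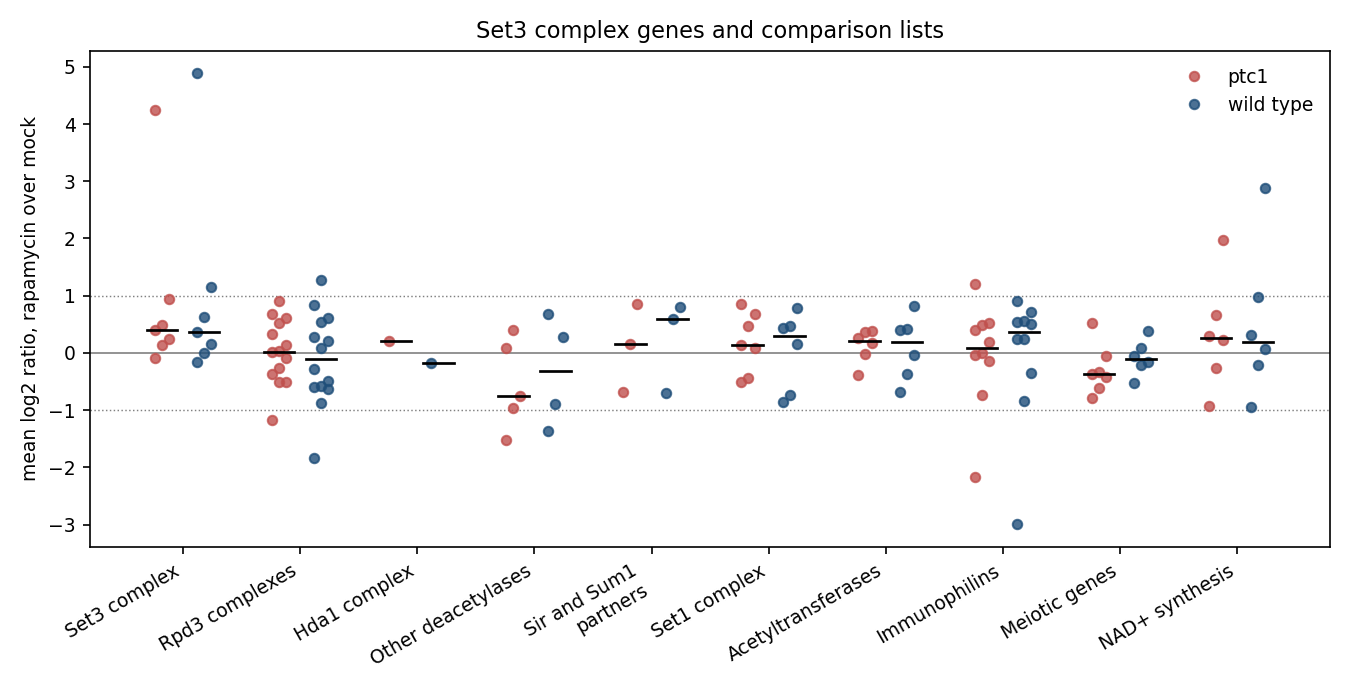
Mean log2 ratio of rapamycin over mock (vertical axis) for each measured gene of the Set3 complex and of the comparison lists (horizontal axis), in ptc1 (red, left) and the wild type (blue, right), with list medians as black bars and the 2-fold size dotted. HOS4 is the top point, at 4.25 in ptc1 and 4.89 in the wild type, followed by BNA1 at 1.98 in ptc1 and 2.88 in the wild type.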

How the data were processed

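Per the labels, the authors dropped spots narrower than 120 µm or dimmer than 150 units in Cy3 and Cy5 and used the ratio of medians for normalisation. Deposited values are log ratios, taken here as log2, for each open reading frame and array. How background was corrected and which log base was used is not given in the sources used here. RNA was labelled from 8 µg of total RNA per the labels' protocols.

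Rows were named through a RefSeq table of the R64 assembly, used for names and gene order: 5662 by locus tag, 52 by synonym, and 498 kept their identifier. Rows of the same gene were averaged. The rule for rises and falls was tried on simulated data, scored for changes well beyond the 2-fold size only. Genes with changes near that size were therefore not covered. Named genes were the members, PTC1, the 3 neighbours of HOS4 on each side, the 5 genes closest to HOS4, and members of 9 comparison lists (73 genes, from general knowledge of yeast) past the rule, with FPR1, SIR2 and RPD3. SIN3, IME1, IME2, NDT80, BNA6, TNA1, SET1, SIR3 and HDA1 were added after their values were seen. So were HST4, EAF3, ASH1, SHG1, BRE2, SMK1, SPS2, SPO11, RFM1 and FPR3. Members and lists were chosen with earlier results of these data known. A planned motif search in promoters was not run. Alternatives were centring, scaling, other sizes, no sign condition, missing values and leaving out each array. Python 3.11.15 with pandas 2.3.3 and NumPy 2.4.6 was used, and precision is limited by having 4 arrays.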

Additional observations from a re-analysis of the deposited data

Results flagged for a closer look

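HDA1 (YNL021W), the gene of the catalytic subunit of the Hda1 deacetylase complex, was positive on both ptc1 arrays (0.044 and 0.357) and negative on both wild-type arrays (−0.13 and −0.208). Its mean was 0.20 ± 0.22 in ptc1 and −0.17 ± 0.06 in the wild type, a difference of 0.37 ± 0.23. This difference was not tested, and none of these means reached the 2-fold size. HDA1 was the single gene with opposite signs in the strains on every array among 73 genes examined on all 4 arrays. No gene of the Set3 complex had this pattern.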

How the results depend on the processing

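HOS4 rose in both strains under every alternative tried, with a mean from 3.77 to 4.73 in ptc1 and from 4.58 to 5.13 in the wild type. Its strain difference was negative throughout but ranged from −1.12 (without ptc1 array 1) and −0.16 (without ptc1 array 2) to −0.02 (arrays scaled to equal spread). In ptc1, 1 member rose, and 2 did with scaled arrays or at 1.5-fold (HOS4 and HOS2). Leaving out an array gave 1 to 2, SIF2 being added without ptc1 array 1. In the wild type 2 members rose, 1 at 3-fold, 3 at 1.5-fold, and 2 without either array. For the strain difference the count was 0, and leaving out an array gave 0 to 1, HOS4 being the one without ptc1 array 1. Over all genes, the counts past the rule were 1198 in ptc1, 1378 in the wild type and 89 for the difference. At 1.5-fold they were 2218, 2402 and 431, and at 3-fold 566, 700 and 7. The difference gave 49 with scaled arrays and 203 without ptc1 array 1. Centring each array on its median shifted wild-type array 1 by its median of 0.131 and the middle gene by −0.05 in ptc1 and −0.06 in the wild type. No paired analysis was possible because the labels number no replicates and each strain is 1 RNA pair, so no block could be fitted. Pairing the arrays by dye gave the HOS4 values printed with the comparison of strains (−0.88 and −0.40 by the dye fields, 0.08 and −1.36 by the titles), and any such pairing leaves the mean difference as it is. The causes of these shifts were not tested.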
